A study of Homo sapiens with 24 samples.

Results

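ZNF genes are the human genes whose symbol is ZNF followed by a number, and the well-expressed ones were followed here in ARP1 cells cultured with LPA or with PBS. Members were chosen by name and by PBS level: they were the genes whose symbol is ZNF, a number and at most 1 further letter, and whose mean over the 3 PBS libraries was at least 10 FPM (fragments counted for a gene, scaled to a common library total). The table held 485 gene identifiers with such a symbol among 19158 genes; 314 reached 10 FPM in PBS and 171 did not. ARP1 is a line of human multiple myeloma, a malignancy of plasma cells, and the study asked which RNAs differ after 24 h with LPA. The LPA group was cells given LPA at a labelled 4 mg/mL for 24 h, and the PBS group was cells given the vehicle. The PBS treatment label itself names no time, and the same 24 h is taken here. Both groups were the same cell line and each gave 3 libraries. LPA is read here as lysophosphatidic acid, a signalling lipid with G protein-coupled receptors of its own, although only the abbreviation is given; the labelled dose is high for it, so the unit is in doubt. Nothing in the labels ties the libraries of a group to different cultures. The p-values therefore speak only for the spread among these libraries, which may be technical.

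C2H2 zinc finger proteins read DNA with a row of small zinc-bound units, each of which contacts a few bases, and they form the largest group of human transcription factors. Many carry a KRAB box, which binds TRIM28 and through it SETDB1, the HP1 proteins and histone deacetylases, so that the bound DNA, often a transposable element, is held in closed chromatin. The KRAB genes lie in tandem clusters, above all on chromosome 19, and their members are close copies of each other. A smaller number of ZNF proteins act in other ways, in chromatin complexes, on RNA or at the spindle.

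Of the 314 members, 310 were protein-coding and 4 were pseudogenes (ZNF271P, ZNF542P, ZNF702P and ZNF767P). In the translated coding sequences of GENCODE 29 a pattern for the KRAB A box was found in 181 members, and a looser pattern in 200. Counts of KRAB members below mean the 181, except in the later list of those with a published target or partner. The pattern misses some KRAB genes: ZNF224, on that list, lacks it, so the other members hold KRAB genes too. A SCAN domain pattern, which marks a protein pairing domain, was found in 14 members, 3 of which also had the KRAB pattern. The median number of C2H2 fingers was 11, with 12 in KRAB members and 8 in the other coding members. The highest number was 36, in ZNF208, and no finger of the usual spacing was found in ZNF720, ZNF330, ZNF839, ZNF862 and ZNF738. Chromosome 19 held 167 members, 127 of them with the KRAB pattern, against 22 on chromosome 7, 17 on chromosome 16 and 13 on chromosome 1. The median GC content of the members' transcripts was 42.8%, against 46.8% over the genes tested at 10 FPM or more in PBS, and their longest transcripts had medians of 4487 and 3886 bases.

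Promoters, taken as 250 bases before to 50 bases after the gene start, are printed for 3 members called lower with LPA (ZNF267, ZNF460 and ZNF841) and 2 called higher (ZNF124 and ZNF714). They were picked, after their values were seen, to show motifs common in this family. All are from RefSeq (build GRCh38.p14), 5′ to 3′ along the gene's strand. Capitals mark CCGGAAG, the core bound by ETS factors, and CCAATCAG, an extended CCAAT box; these and the motifs below were searched on both strands, so the ETS core also appears as CTTCCGG. ZNF267 lies at chr16:31873557-31873856 (plus strand), ZNF460 at chr19:57279732-57280031 (plus), ZNF841 at chr19:52095716-52096015 (minus), ZNF124 at chr1:247171971-247172270 (minus) and ZNF714 at chr19:21081953-21082252 (plus).
ZNF267: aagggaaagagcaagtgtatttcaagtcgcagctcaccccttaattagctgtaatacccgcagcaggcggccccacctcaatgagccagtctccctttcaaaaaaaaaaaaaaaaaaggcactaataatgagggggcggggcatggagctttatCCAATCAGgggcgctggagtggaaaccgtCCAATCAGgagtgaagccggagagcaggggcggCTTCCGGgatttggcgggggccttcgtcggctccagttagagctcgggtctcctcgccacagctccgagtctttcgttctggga
ZNF460: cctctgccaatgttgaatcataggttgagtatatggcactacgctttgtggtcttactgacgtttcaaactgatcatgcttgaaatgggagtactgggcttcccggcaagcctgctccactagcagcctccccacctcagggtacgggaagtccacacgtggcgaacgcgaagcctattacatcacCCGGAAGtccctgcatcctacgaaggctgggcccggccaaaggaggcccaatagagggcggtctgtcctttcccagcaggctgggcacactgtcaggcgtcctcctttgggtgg
ZNF841: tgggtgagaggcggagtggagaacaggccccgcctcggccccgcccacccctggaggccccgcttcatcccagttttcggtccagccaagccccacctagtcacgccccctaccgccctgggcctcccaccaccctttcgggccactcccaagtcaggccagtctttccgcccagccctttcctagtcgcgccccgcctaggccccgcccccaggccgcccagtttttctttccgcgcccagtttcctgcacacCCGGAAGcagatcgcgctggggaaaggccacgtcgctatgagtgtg
ZNF124: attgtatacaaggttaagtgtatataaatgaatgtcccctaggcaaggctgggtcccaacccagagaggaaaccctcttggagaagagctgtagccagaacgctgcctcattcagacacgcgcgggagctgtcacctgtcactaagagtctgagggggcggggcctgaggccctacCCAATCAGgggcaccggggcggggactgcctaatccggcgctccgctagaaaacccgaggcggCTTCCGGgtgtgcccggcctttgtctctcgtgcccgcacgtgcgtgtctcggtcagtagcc
ZNF714: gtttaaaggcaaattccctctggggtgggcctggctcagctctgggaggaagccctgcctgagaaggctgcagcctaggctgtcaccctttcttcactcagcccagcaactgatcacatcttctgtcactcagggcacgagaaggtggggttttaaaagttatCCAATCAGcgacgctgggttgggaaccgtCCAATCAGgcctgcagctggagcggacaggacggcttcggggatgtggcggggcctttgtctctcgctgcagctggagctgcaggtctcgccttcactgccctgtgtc
RefSeq promoters were matched for 277 members. CCGGAAG was in 45.1% of them (54.0% of members with the KRAB pattern, 32.8% of those without it) and in 10.7% of 27305 promoters overall. CCAATCAG was in 20.6% of the members' promoters and in 4.16% overall. The type of site bound by ZNF143 was in 10.8% against 0.89%, and the GC box GGGCGG in 64.3% against 44.6%. TATAAA was in 3.61% against 12%, and the interferon-response type of site in 1.44% against 3.65%. The 27305 promoters were not limited to genes expressed in these cells, whereas the members were chosen by level. The motif shares were not compared with those of other genes of like level. Whether they are particular to this family was therefore not tested. The median log2 fold change was 0.13 with and 0.13 without CCGGAAG, and 0.14 with and 0.12 without CCAATCAG. A match is a description of letters, not of a bound site.

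The LPA libraries held between 6941747 and 8740992 reads and the PBS libraries between 5498910 and 5615625, and each member had between 44 and 2423 reads in a library. Of 10 plasma cell markers, all present in both groups, 8 were higher with LPA by limma on FPM (7 on rescaled FPM) and 0 lower, among them SDC1, at 118 FPM with LPA and 60.7 FPM with PBS (log2 fold change 0.95), JCHAIN (0.87) and IRF4 (0.48). SLAMF7 (-0.04) and CD38 (-0.27) did not pass. The part of these markers in the members' values was not tested. Of 11 markers of T, myeloid, stromal and erythroid cells, CD3D, CD2 and LYZ were not in the table, CD3E, CD14, PDGFRB and HBA1 averaged below 1 FPM in each group, and the highest, COL1A1, averaged 10.2 FPM with LPA and 14.6 FPM with PBS. PBS 2 stood above the other PBS libraries for most members: it was the highest PBS library for 204 of 314, and LPA 3 was the highest LPA library for 192. Over all tested genes the same held for 8438 (PBS 2) and 9158 (LPA 3) of 16274. The median gene was 0.13 higher on the log2 scale with LPA than with PBS. Results are therefore given on FPM as deposited and, beside it, on FPM divided by a size factor per library (median of ratios), which sets the median gene to 0.00.

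As a family the well-expressed ZNF genes had the fold change of the median gene and lay close to it. In bulk RNA of this kind fewer cells of a type and less RNA per cell cannot be told apart. On the log2(FPM + 1) scale, the median log2 fold change of LPA over PBS was 0.13 over the members, 0.13 over all 16274 tested genes and 0.16 over the 10007 tested genes at 10 FPM or more in PBS. On rescaled FPM the members' median was -0.02 and that of all genes 0.00. Of the members, 271 (86.3%) lay within 0.25 log2 units of the median gene, against 75.1% of the genes at 10 FPM or more. A single member, ZNF267, differed from the median gene by more than 0.5, or 0.32% of the members against 5.23% of the genes at 10 FPM or more. Among genes at 40 FPM or more in PBS, where error is smaller, 90.1% of members and 76.7% of all genes lay within 0.25 of the median gene.

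**Figure D1:**
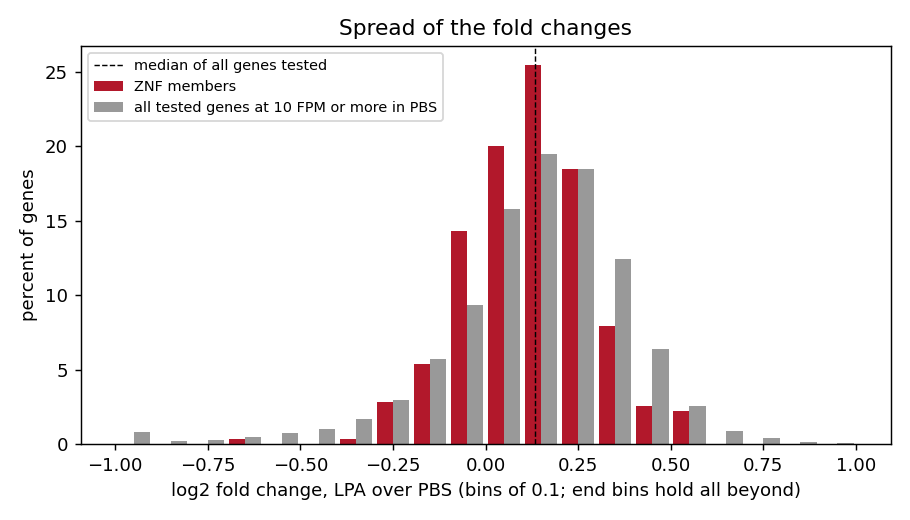
Distribution of log2 fold changes, LPA over PBS, as the percent of genes in each bin of 0.1, for the 314 ZNF members (red) and the tested genes at 10 FPM or more in PBS (grey); the end bins hold all values beyond them. Both peak near the dashed median of all genes (0.13), and the red bars are fewer in both tails.

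By limma with Benjamini-Hochberg adjustment over all tested genes at 0.05, 55 members were higher with LPA (17.5%, against 22.5% of all tested genes and 33.1% of those at 10 FPM or more), 4 were lower (1.27%, against 4.49% and 5.73%) and 255 passed in neither direction. On rescaled FPM 15 members were higher (4.78%, against 9.62% and 14.3%) and 24 lower (7.64%, against 9.45% and 12.9%). On recovered reads edgeR called 17 higher (5.41%, against 10.3% and 15.5%) and 25 lower (7.96%, against 9.64% and 13.2%), and DESeq2 called 5 higher (1.59%, against 5.69% and 7.74%) and 8 lower (2.55%, against 6.7% and 8.48%). More members were thus higher than lower on deposited FPM, and fewer on the 3 centred scales. The 15 higher and 4 of the 24 lower members had also passed on deposited FPM. The counts leaned on several libraries. On deposited FPM there were 30 higher members without LPA 3 and 85 without PBS 2, and 2 lower members without LPA 1, LPA 2 or PBS 2. On rescaled FPM the 15 higher members became 5 without LPA 1, 9 without LPA 2 and 8 without PBS 1, and the 24 lower ones became 11 without LPA 1 or LPA 3 and 13 without LPA 2 or PBS 1. Read by overlap instead, all 3 LPA libraries lay above all 3 PBS libraries for 99 members (31.5%, against 31.4% of all tested genes and 42.4% of those at 10 FPM or more) and below them for 13 (4.14%, against 7.42% and 8.15%). On rescaled FPM these were 31 (9.87%, against 16.6% and 22.2%) and 55 (17.5%, against 17% and 20.4%).

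By level, the share called higher on deposited FPM was highest among the most abundant members. At 10 to 20 FPM in PBS, 17 of 125 members were higher and 0 lower by limma on FPM, or 13.6% higher against 18.6% of all genes in that range, of which 4.99% were lower. At 20 to 40 FPM 15 of 108 were higher (13.9%, against 31.1%) and 1 lower (0.926%, against 4.71%). At 40 FPM or more 23 of 81 were higher (28.4%, against 43.5%) and 3 lower (3.7%, against 6.89%). On rescaled FPM the most abundant members turned, with 3 higher (3.7%, against 20.7%) and 13 lower (16%, against 16.8%). By edgeR 4 of them were higher (4.94%, against 22.1%) and 14 lower (17.3%, against 17.1%). The rescaled counts at 20 to 40 FPM were 8 higher (7.41%, against 12%) and 5 lower (4.63%, against 10.5%). At 10 to 20 FPM they were 4 higher (3.2%, against 6.75%) and 6 lower (4.8%, against 9.38%). At 10 to 20 FPM 1 member was lower at an unadjusted p below 0.05 by limma on FPM. There edgeR called 6 lower (4.8%, against 9.57%) and DESeq2 0 (against 5.22%). The PBS level that chose the members also enters the fold change. Choosing by the LPA mean instead gave 327 members with 58 higher and 4 lower, and choosing by the mean of all 6 libraries gave 322 with 58 and 4.

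**Figure D2:**
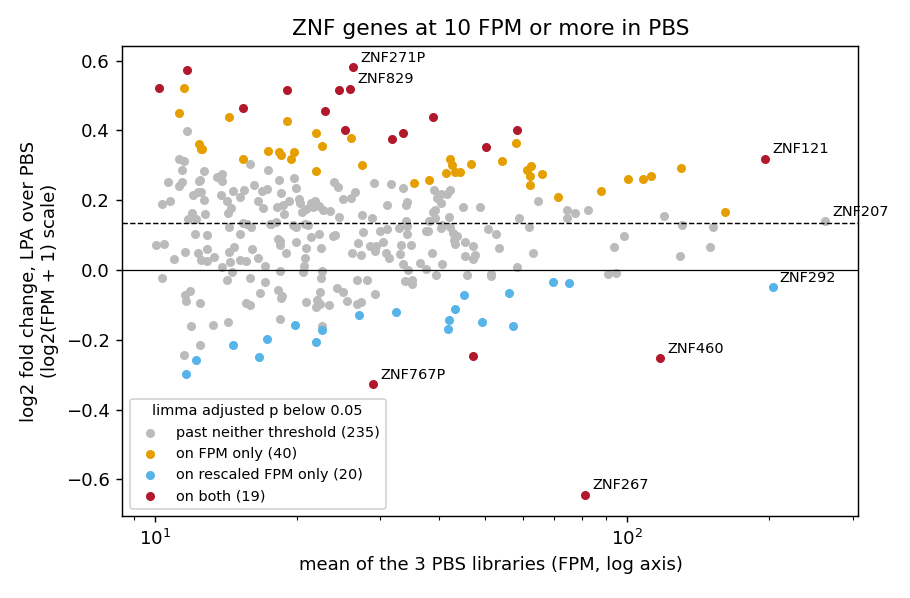
Log2 fold change of LPA over PBS, computed on log2(FPM + 1), against the mean of the 3 PBS libraries in FPM (log axis) for each of the 314 ZNF members. Colour gives the scale on which a member passed an adjusted p of 0.05; most points are grey and lie around the dashed median of all genes (0.13), and ZNF267 stands alone at -0.64.

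Summed over the members, reads came to 11502, 11364 and 12183 FPM in LPA 1 to 3 and to 10306, 11350 and 10424 FPM in PBS 1 to 3. The LPA sums were all above the PBS sums, though PBS 2 reached the level of LPA 2 almost exactly. The means were 11683 ± 438 FPM with LPA and 10693 ± 572 FPM with PBS (SD, n = 3 each). On rescaled FPM the sums averaged 11091 ± 15.3 with LPA and 11249 ± 162 with PBS, so the order of the groups was the reverse of that on deposited FPM. The median member varied by 6.61% between LPA libraries and by 8.76% between PBS libraries (SD over mean).

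ZNF267, a KRAB protein on chromosome 16 known from activated liver stellate cells, was the member that fell most. It had 50.3, 47.8 and 57.5 FPM in LPA 1 to 3, against 77.6, 87.0 and 79.8 FPM in PBS 1 to 3. The groups were far apart, with the highest LPA library well under the lowest PBS library. The log2 fold change was -0.64 (SE 0.08, limma adjusted p = 1.86e-08), and -0.79 on rescaled FPM. It was lower in every fit run and without any single library, and its promoter, printed above, holds 1 ETS core and 2 extended CCAAT boxes.

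The other 3 members called lower on FPM fell by smaller amounts. ZNF460, a KRAB gene of the most distal chromosome 19 cluster with 11 fingers, had 98.4, 94.7 and 102 FPM with LPA and 117, 126 and 109 FPM with PBS (log2 fold change -0.25, SE 0.07, limma adjusted p = 0.00518). All 3 LPA libraries were under all 3 PBS libraries, and the call held without any single library. ZNF767P, a transcribed pseudogene on chromosome 7, had 22.6, 22.2 and 23.6 FPM with LPA and 28.3, 31.3 and 27.1 FPM with PBS (-0.33, limma adjusted p = 0.0146). Its groups did not overlap, but the call was lost without LPA 1 (-0.32), LPA 2 (-0.31) or PBS 2 (-0.27). ZNF841, a KRAB gene on chromosome 19, had 40.7, 39.4 and 38.2 FPM with LPA and 40.7, 51.2 and 49.7 FPM with PBS (-0.25, limma adjusted p = 0.0391). LPA 1 and PBS 1 were the same after rounding, and of the 6 fits that leave out 1 library only the one without PBS 1 kept the call. On rescaled FPM these 3 fell by 0.40 (ZNF460), 0.47 (ZNF767P) and 0.39 (ZNF841) on the log2 scale.

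The 10 members with the highest fold changes among those called with no overlap between groups had PBS means between 10.2 and 26.3 FPM. Their lack of overlap follows from that choice. ZNF271P, a transcribed pseudogene on chromosome 18, had 40.4, 37.6 and 40.6 FPM with LPA and 27.9, 29.1 and 21.8 FPM with PBS. Every LPA library was above every PBS library, and the log2 fold change was 0.58 (SE 0.10, limma adjusted p = 1.5e-05). ZNF829, a KRAB gene of chromosome 19, was nearly as steady, with 37.5, 36.5 and 38.3 FPM with LPA and 24.0, 27.3 and 26.2 FPM with PBS (0.52, SE 0.10, limma adjusted p = 4.55e-05). ZNF331, a KRAB gene that is imprinted and lies at the breakpoints of some thyroid adenomas, had 34.8, 33.4 and 37.1 FPM with LPA and 27.1, 27.5 and 19.1 FPM with PBS (0.52, limma adjusted p = 0.000345). PBS 3 was its lowest library, and on rescaled FPM the log2 fold change was 0.37 with it and 0.22 without it, which missed the threshold. ZNF124, a KRAB gene on chromosome 1, had 28, 25.8 and 28.8 FPM with LPA and 18.1, 20.8 and 18 FPM with PBS (0.51, limma adjusted p = 0.00026). ZNF519, a KRAB gene of chromosome 18, had 32.9, 32.4 and 30.2 FPM with LPA and 22.4, 24.0 and 22.4 FPM with PBS (0.45, limma adjusted p = 0.000523). In both of these genes the groups stood clear of each other, as the choice required. Neither passed by DESeq2 (adjusted p = 0.0587 and 0.107), nor did ZNF331 (DESeq2 adjusted p = 0.0613). On rescaled FPM ZNF519 missed the threshold without LPA 1 or LPA 2.

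ZNF738, which has a KRAB pattern and no finger of the usual spacing, had 18.2, 17.6 and 17.0 FPM with LPA and 11.6, 14.1 and 9.28 FPM with PBS (0.57, limma adjusted p = 0.00101). ZNF738 did not pass by DESeq2 (adjusted p = 0.104), and on rescaled FPM it lost the call in 3 of the 6 fits without a library. The other 4 of the 10 highest lost their calls on FPM without a single library, and none of them passed by DESeq2. ZNF485 (0.52) and ZNF747 (0.46) lost the call without LPA 3, at 0.38 and 0.36. On rescaled FPM they lost it in 4 and 5 of the 6 fits without a library. ZNF530 (0.52) lost it without LPA 3 (0.40) or PBS 1 (0.37), and ZNF570 (0.45) without LPA 1 (0.43) or PBS 2 (0.33). ZNF530 and ZNF570 also missed the threshold on rescaled FPM, at 0.38 and 0.31. In all, 35 of the 59 members called on FPM lost the call in at least 1 fit that left out a library.

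**Figure D3:**
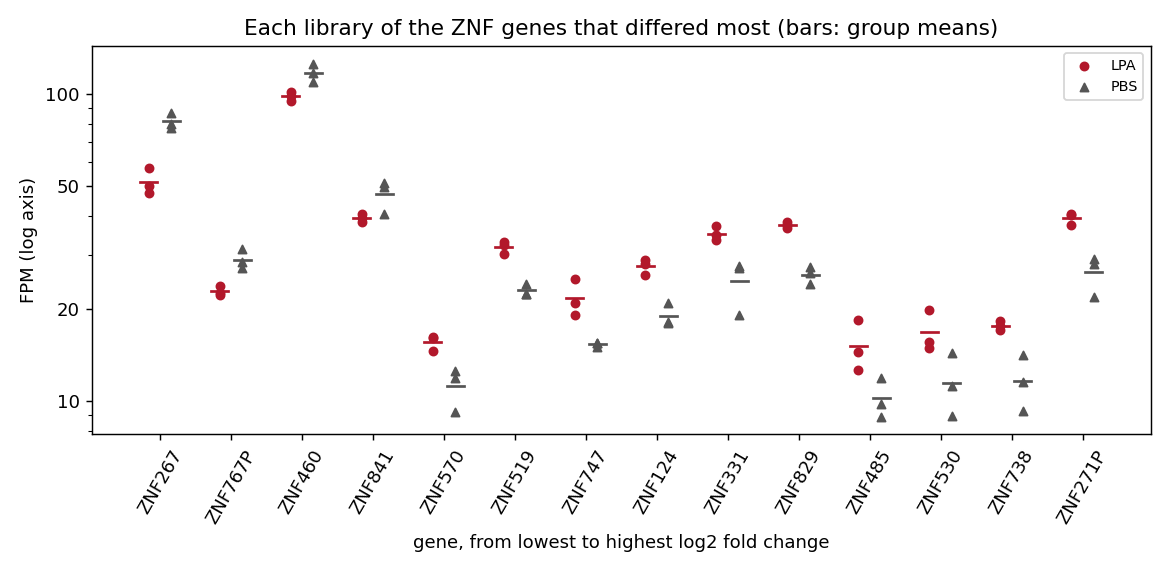
FPM (log axis) in each of the 3 LPA (red circles) and 3 PBS libraries (grey triangles) for the 4 members called lower and the 10 highest members, in order of log2 fold change; bars are group means. The 10 highest were picked from members whose groups do not overlap, and the groups of the 4 called lower do not overlap either. The gap is widest in ZNF267, with a near touch in ZNF841.

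A few members passed by every tool, and are named here after their values were seen. ZNF121, ZNF271P, ZNF664, ZNF714 and ZNF829 were higher by limma on deposited and on rescaled FPM, by edgeR and by DESeq2. ZNF664, on chromosome 12, had 80.3, 70.6 and 81.8 FPM with LPA and 55.4, 61.5 and 58.6 FPM with PBS (log2 fold change 0.40, limma adjusted p = 0.000115). ZNF714, on chromosome 19, had 54.8, 53.3 and 50.6 FPM with LPA and 39.0, 39.8 and 37.4 FPM with PBS (0.44, limma adjusted p = 0.0001). Neither gene showed any overlap between groups. On rescaled FPM ZNF664 and ZNF714 missed the threshold without LPA 1 (0.22 and 0.26), and ZNF121 without PBS 1 (0.13). ZNF136, ZNF264, ZNF267, ZNF281, ZNF292, ZNF460, ZNF767P and ZNF841 were lower in the 3 fits that centre the median gene. Of these, ZNF136, ZNF264, ZNF281 and ZNF292 passed no threshold on deposited FPM, where their log2 fold changes were -0.17, -0.16, -0.15 and -0.05.

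ZNF207, also called BuGZ, binds BUB3 and microtubules at kinetochores and took the most reads of the family. It had 277, 287 and 302 FPM with LPA and 253, 287 and 246 FPM with PBS. PBS 2 equalled LPA 2 after rounding, and the log2 fold change of 0.14 missed the threshold (limma adjusted p = 0.0702) and was -0.01 on rescaled FPM. ZNF292, a very long protein linked to neurodevelopmental disorder, had 192, 189 and 208 FPM with LPA and 197, 217 and 195 FPM with PBS. Its groups overlapped on deposited FPM, where the log2 fold change was -0.05 (limma adjusted p = 0.608). On rescaled FPM the groups did not overlap, and it was -0.20 (limma adjusted p = 0.0013). ZNF121, reported to bind MYC, had 239, 239 and 253 FPM with LPA and 180, 215 and 192 FPM with PBS. It was the clearest rise among the abundant members (0.32, SE 0.06, limma adjusted p = 7.34e-05), and 0.17 on rescaled FPM. ZNF638, a DNA-binding protein that works with the HUSH complex to silence retroviral DNA, averaged 180 ± 2.29 FPM with LPA and 161 ± 9.17 FPM with PBS (SD, n = 3 each; 0.17, limma adjusted p = 0.0418). Its call held in only 1 of the 6 fits without a library, that without PBS 2. ZNF562, a KRAB gene, averaged 165 ± 9.41 FPM with LPA and 152 ± 17.4 FPM with PBS (SD, n = 3 each), a log2 fold change of 0.12 that missed the threshold (limma adjusted p = 0.192).

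The role lists are small, and their counts stand beside 33.1% higher and 5.73% lower by limma on FPM, and 14.3% higher and 12.9% lower on rescaled FPM, over all tested genes at 10 FPM or more in PBS. Of 12 members with roles in chromatin complexes, 2 were higher on FPM by limma (16.7%) and 0 lower, the same counts as at an unadjusted p below 0.05. On rescaled FPM 0 passed in either direction (2 higher and 1 lower unadjusted), and 0 by edgeR or DESeq2. Their median log2 fold change was 0.07. The 2 were ZNF518A, with 139, 129 and 137 FPM with LPA and 104, 128 and 105 FPM with PBS (0.27, limma adjusted p = 0.00339), and ZNF592. ZNF592, which sits with ZMYND8 and ZNF687 in a chromatin complex, had 55.3, 54.0 and 64.4 FPM with LPA and 42.9, 50.8 and 46.4 FPM with PBS (0.30, limma adjusted p = 0.00708). ZNF518A was parted from PBS 2 by little, and ZNF592 lost its call without LPA 3 or PBS 1. ZNF827, which brings the NuRD complex to telomeres, averaged 29 ± 2.29 FPM with LPA and 25 ± 0.403 FPM with PBS. ZNF644, a partner of the histone methyltransferases EHMT1 and EHMT2, averaged 143 ± 4.82 FPM with LPA and 131 ± 8.54 FPM with PBS (SD, n = 3 each), and neither gene passed.

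Of 11 members with roles on RNA, at the ribosome or in translation, 3 were higher on FPM by limma (27.3%) and 0 lower (6 and 0 at an unadjusted p below 0.05), with a median of 0.17. On rescaled FPM 0 passed (1 and 1 unadjusted), by edgeR 1 was higher, and by DESeq2 0 passed. ZNF346, which binds double-stranded RNA, had 34.2, 32.0 and 36.0 FPM with LPA and 24.6, 27.5 and 25.8 FPM with PBS (log2 fold change 0.38, limma adjusted p = 0.00293). ZNF106, an RNA-binding protein whose loss in mice harms motor neurons and muscle, had 98.5, 104 and 106 FPM with LPA and 87.9, 93.5 and 82.9 FPM with PBS (0.23, limma adjusted p = 0.0152). The groups were apart in both genes, though ZNF106 lost its call without LPA 2, LPA 3 or PBS 3. The other member called here was ZNF638. ZNF326, which links RNA polymerase II to splicing, averaged 48.5 ± 2.52 FPM with LPA and 41.5 ± 2.03 FPM with PBS (SD, n = 3 each; 0.22, limma adjusted p = 0.0586) and did not pass.

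Of 10 members that bind DNA as activators or regulators, 1 was higher on FPM by limma (10%) and 0 lower (2 and 0 at an unadjusted p below 0.05), and the median was 0.07. On rescaled FPM, by edgeR and by DESeq2 0 were higher and 1 was lower. The higher one was ZNF335, part of a histone H3K4 methyltransferase complex, with 41.7, 39.6 and 44.9 FPM with LPA and 33.7, 37.1 and 35.1 FPM with PBS (0.25, limma adjusted p = 0.038), a call lost without LPA 1, LPA 3, PBS 1 or PBS 3. The lower one on rescaled FPM was ZNF281, a regulator of stem cell and epithelial-mesenchymal programmes, with 41.6, 42.8 and 48.7 FPM with LPA and 46.6, 54.6 and 46.8 FPM with PBS as deposited. LPA 3 overlapped the PBS libraries on deposited FPM, whereas on rescaled FPM every LPA library lay below every PBS library. ZNF143, whose type of site was found in 30 of the members' promoters, averaged 16.4 ± 2.48 FPM with LPA and 14.2 ± 2.76 FPM with PBS (SD, n = 3 each). That difference was not called. Of the 30 members with the site, 8 were higher by limma on FPM (26.7%, against 33.1% of genes at 10 FPM or more) and 0 lower (12 and 0 at an unadjusted p below 0.05). On rescaled FPM and by edgeR 1 was higher (3.33%) and 0 lower (on rescaled FPM 1 and 1 unadjusted), and by DESeq2 0 passed. ZNF24 averaged 133 ± 8.99 FPM with LPA and 119 ± 7.31 FPM with PBS (SD, n = 3 each) and did not pass.

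Of 13 KRAB members with a published target or partner, 1 was higher by limma on FPM (ZNF431, or 7.69%), 1 was lower (ZNF267) and 11 passed in neither direction, with a median log2 fold change of 0.11. On rescaled FPM ZNF431 was higher and 2 were lower (ZNF267 and ZNF445). ZNF431, whose mouse counterpart represses Ptch1, had 62.2, 66.6 and 63.7 FPM with LPA and 47.1, 56.4 and 47.1 FPM with PBS (0.35, limma adjusted p = 0.00113). PBS 2 was the nearest to the LPA libraries, and the call of ZNF431 on rescaled FPM was lost in 4 of the 6 fits without a library. ZNF92 averaged 15.5 ± 2.65 FPM with LPA and 11.7 ± 3.24 FPM with PBS, and ZNF268 averaged 23.7 ± 1.68 FPM with LPA and 19.7 ± 2.92 FPM with PBS (SD, n = 3 each); neither passed. Of members picked after their values were seen, for what they silence, ZNF91, which binds SVA elements, had a log2 fold change of 0.12, and ZNF93, which binds LINE-1 elements, had 0.16. ZNF445, which guards imprinted loci, had -0.04. None of the 3 passed on deposited FPM; ZNF445 passed as lower on rescaled FPM (-0.18, limma adjusted p = 0.0341), a call lost in 5 of the 6 fits without a library.

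KRAB and other members had nearly the same centre. The median log2 fold change was 0.12 over the 181 members with the KRAB pattern and 0.13 over 129 other coding members. The others include KRAB genes that the pattern missed, so the 2 sets are not cleanly parted. Over the 200 members with the looser pattern the median was 0.13, with 38 higher (19%) and 3 lower (1.5%) by limma on FPM. On FPM 33 KRAB members were higher (18.2%) and 3 lower (1.66%) by limma, against 20 (15.5%) and 0 of the others, both shares being under those over genes at 10 FPM or more, 33.1% and 5.73% (53 and 3 against 37 and 1 at an unadjusted p below 0.05). On rescaled FPM 10 KRAB members were higher (5.52%) and 19 lower (10.5%), against 4 and 4 of the others, and beside 14.3% and 12.9% over genes at 10 FPM or more. The difference between these shares was not tested. The 14 SCAN members had a median of 0.00 on FPM and -0.14 on rescaled FPM. By limma on FPM 1 of them was higher (7.14%) and 0 lower (4 and 0 unadjusted). On rescaled FPM 0 were higher and 1 lower (7.14%), or 0 and 3 unadjusted, and by edgeR 0 and 1. By number of fingers, 11 of 84 members with up to 7 fingers were higher and 0 lower (1 lower unadjusted), 35 of 152 with 8 to 14 were higher and 2 lower, and 7 of 74 with 15 or more were higher and 1 lower. On rescaled FPM members with up to 7 fingers had 3 higher and 4 lower by limma, those with 8 to 14 had 11 and 11, and the 74 with 15 or more had 0 and 8 (3 and 12 unadjusted). The 10.8% lower of these 74 lies near the 12.9% over genes at 10 FPM or more. By edgeR they had 0 higher and 8 lower, and by DESeq2 0 and 1.

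On chromosome 19, 31 of 167 were higher by limma on FPM (18.6%, against 33.1% of genes at 10 FPM or more). There 2 were lower (1.2%, against 5.73%), and the median was 0.14. On the other chromosomes 24 of 147 were higher (16.3%) and 2 lower (1.36%), with a median of 0.10. On rescaled FPM the balance turned in both, with 8 higher (4.79%) and 12 lower (7.19%) on chromosome 19. Elsewhere 7 were higher (4.76%) and 12 lower (8.16%). All these shares were under the 14.3% higher and 12.9% lower over genes at 10 FPM or more. Along chromosome 19, members whose neighbours lay within 500 kb of each other were joined into runs, a limit chosen after the values were seen. The run counts are small. They stand beside 33.1% higher and 5.73% lower on FPM over genes at 10 FPM or more. On rescaled FPM those shares were 14.3% and 12.9%, and by edgeR 15.5% and 13.2%. The run from ZNF101 to ZNF208 held 20 members, 8 of them higher (40%, against 33.1% of genes at 10 FPM or more) and 0 lower by limma on FPM (10 and 0 unadjusted), with a median of 0.17. On rescaled FPM 4 were higher (ZNF101, ZNF714, ZNF431 and ZNF738) and 1 lower (ZNF429), and by edgeR also 4 and 1. Of the 6 rescaled fits without a library, ZNF101 lost its call in 5, ZNF431 and ZNF429 in 4, ZNF738 in 3 and ZNF714 in 1. The run from ZNF175 to ZNF331 held 29 members, 7 higher (24.1%) and 1 lower on FPM. On rescaled FPM and by edgeR that run had 1 higher and 3 lower. The run from ZNF146 to ZNF573 held 23, 5 higher (21.7%) and 0 lower on FPM (10 and 0 unadjusted). On rescaled FPM and by edgeR it had 1 higher and 0 lower. The run from ZNF264 to ZNF446, near the end of the long arm, held 33 with 4 higher (12.1%) and 1 lower on FPM. At an unadjusted p below 0.05 on FPM it had 8 higher and 1 lower. On rescaled FPM and by edgeR it had 0 higher and 3 lower. Of the 17 members from ZNF653 to ZNF791, 0 passed by limma on FPM (1 higher at an unadjusted p below 0.05) and 2 were lower on rescaled FPM and by edgeR. Both ZNF841 and ZNF331, which differed in opposite directions, lie in 1 run, as do ZNF460 and ZNF530. Members of a run share sequence, so reads of near copies may have been counted to more than 1 of them or to none.

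**Figure D4:**
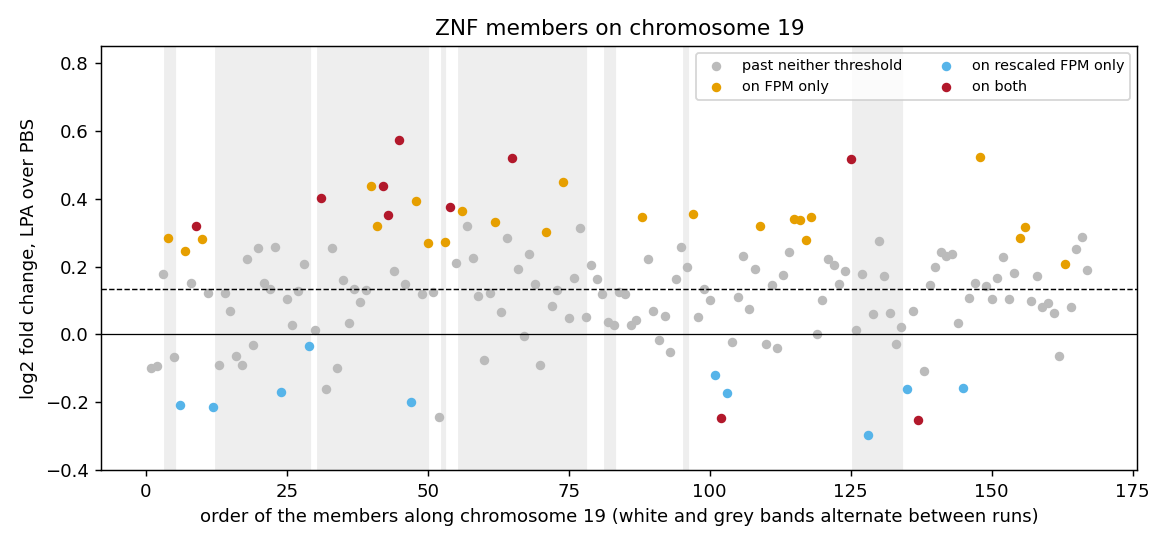
Log2 fold change of LPA over PBS, computed on log2(FPM + 1), for the 167 members on chromosome 19 in their order along the chromosome; white and grey bands alternate between runs of neighbours, and colour gives the scale on which a member passed an adjusted p of 0.05. Higher, lower and uncalled members lie side by side within runs, and the dashed line is the median of all genes (0.13).

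Several of the genes through which KRAB proteins act were higher with LPA, in a share near that of genes of like level. Of a list of 24 partners, with a median PBS level of 67.9 FPM, 12 were higher by limma on FPM (50%, against 22.5% of all tested genes, 33.1% of those at 10 FPM or more and 43.5% of those at 40 FPM or more), 1 was lower and 11 passed in neither direction, with a median log2 fold change of 0.22 against 0.13 over all tested genes. On rescaled FPM 5 were higher (20.8%, against 14.3% of genes at 10 FPM or more and 20.7% at 40 FPM or more) and 1 lower, with a median of 0.07. CBX5, the HP1 alpha protein that reads methylated H3K9, had 182, 175 and 190 FPM with LPA and 127, 140 and 123 FPM with PBS (0.49, SE 0.07, limma adjusted p = 7.05e-08). UHRF1, which recruits the maintenance DNA methyltransferase DNMT1 to newly copied DNA, had 77.6, 70.0 and 88.9 FPM with LPA and 51.6, 52.1 and 58.7 FPM with PBS (0.53, SE 0.08, limma adjusted p = 2.43e-06). In both genes every LPA library was above every PBS library by a wide margin. The deacetylases HDAC1 (0.38) and HDAC2 (0.43) were also called higher on both scales.

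TRIM28, the scaffold that KRAB boxes bind, had 237, 248 and 270 FPM with LPA and 209, 215 and 212 FPM with PBS. The groups were apart, and it passed on FPM (0.24, SE 0.06, limma adjusted p = 0.00141) but not on rescaled FPM (0.09, limma adjusted p = 0.141). CBX1, CBX3, DNMT1, SUMO2 and SMARCAD1 likewise passed on FPM only. Of these, CBX1 lost the call without PBS 3, CBX3 without LPA 1 or PBS 3, SUMO2 without PBS 1 and SMARCAD1 without LPA 3. SETDB1, the H3K9 methyltransferase that TRIM28 recruits, averaged 75.1 ± 1.59 FPM with LPA and 71.9 ± 4.92 FPM with PBS (SD, n = 3 each) and did not pass. Of the HUSH silencing complex and its partner MORC2, MPHOSPH8, TASOR, PPHLN1 and MORC2 all missed the threshold. MORC3, a chromatin-compacting ATPase, was the partner called lower, with 44, 38.0 and 45.8 FPM with LPA and 46.3, 61.5 and 48.7 FPM with PBS (-0.28, limma adjusted p = 0.0242). Its groups nearly touched, and the call was lost without LPA 2 (-0.20) or PBS 2 (-0.16).

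**Figure D5:**
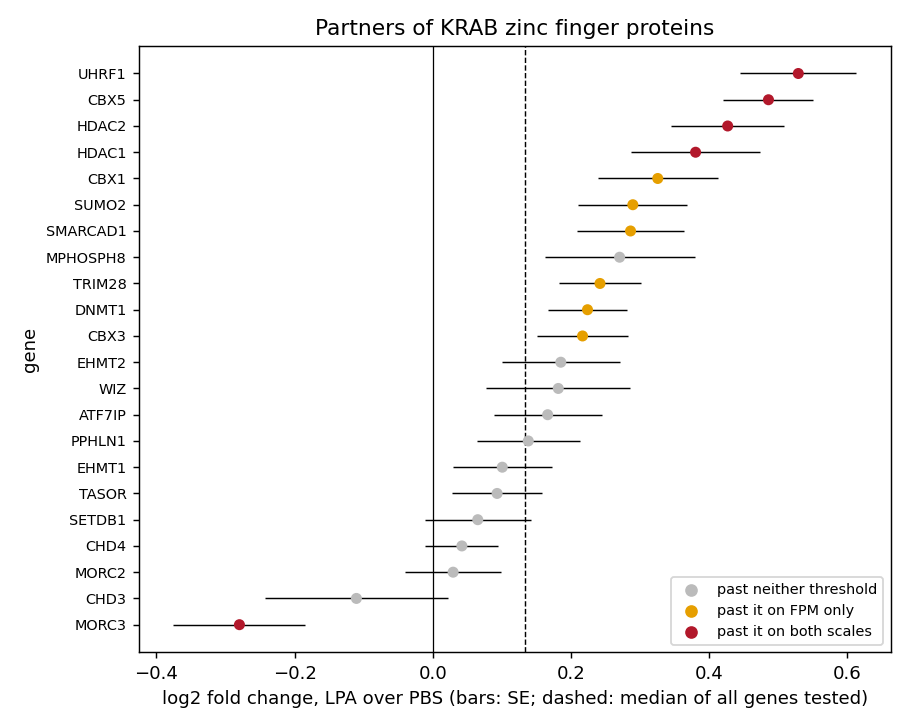
Log2 fold change of LPA over PBS, computed on log2(FPM + 1), with its SE (bars) for 22 of the partner genes, from highest to lowest. Red points passed an adjusted p of 0.05 on deposited and rescaled FPM, orange points on deposited FPM only; all but CHD3 and MORC3 lie above 0, and the dashed line is the median of all genes (0.13).

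The level limit passed through a continuous range. Just inside it lay ZNF670 at 10.04 FPM in PBS, ZNF485 at 10.2 and ZNF836 at 10.3, and just outside it ZNF626 at 9.99, ZNF428 at 9.96 and ZNF273 at 9.79. ZNF273 was itself called higher (0.57, limma adjusted p = 0.00115, and 0.43 on rescaled FPM, limma adjusted p = 0.0133), though not by DESeq2. Of the 171 ZNF genes below the limit, 148 were tested. By limma on FPM 7 were higher (4.73%, against 22.5% of all tested genes) and 0 lower (against 4.49%), or 15 and 5 at an unadjusted p below 0.05. On rescaled FPM 2 were higher (1.35%, against 9.62%) and 5 lower (3.38%, against 9.45%). Of 77 tested ZBTB, ZSCAN, ZKSCAN and ZFP genes, 10 were higher (13%, against 22.5% of all tested genes) and 4 lower (5.19%, against 4.49%) on FPM. On rescaled FPM 3 were higher (3.9%, against 9.62%) and 9 lower (11.7%, against 9.45%). By name, 6 of 39 ZBTB genes were higher and 3 lower, 1 of 16 ZSCAN genes was higher, 3 of 15 ZFP genes were higher and 1 lower, and 7 ZKSCAN genes passed in neither direction (2 higher unadjusted, and 1 lower by edgeR).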

How the data were processed

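The authors deposited 1 table of FPM (CPM for fragments, reads scaled to the lane total), with 24 lane columns from 6 libraries; 0 columns were left unmapped. The aligner, counter and strand setting were not given in the sources used here. Although the identifiers are human, a mouse build (mm10) stands in the submitters' processing notes, so chromosomes came from GENCODE 29 (GRCh38). Genes were matched by identifier, and where 1 identifier carried several ZNF symbols it was counted once. Reads of near copies, read-through genes and overlapping genes are uncertain.

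Lane means gave library FPM. Genes at 1 FPM or more in at least 3 libraries (16274) were tested by limma 3.58.1 in R 4.3.3 on log2(FPM + 1), two-sided, without covariates, with Benjamini-Hochberg adjustment at 0.05; this scale understates changes of low genes. Steps in the low values gave whole reads for 100% of values (tolerance 0.02 reads). On those reads edgeR 4.0.16 called 1679 genes higher and 1569 lower, and DESeq2 1.42.0 was a further alternative; the others were rescaled FPM, pseudocounts, filters, the replicate block and leaving out libraries. Only the limma fit on FPM was also run on simulated reads, which held no shift of the median gene between groups. The other fits were not tried on simulated data. Same-numbered LPA and PBS libraries did not deviate together from their group means (correlations -0.01, -0.04 and -0.05). With 3 libraries a group this check cannot exclude that the numbers pair them, and the main fit used no pairing.

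Members, lists and alternatives were chosen with earlier results of these data known. Named by rule were the 10 highest and 10 lowest members past the threshold whose groups did not overlap (4 were lower), the 5 with the highest PBS mean, the 3 on either side of the level limit, and up to 4 of each role list with the smallest p. Protein patterns were read from translated GENCODE 29 coding sequences. A few items of the partner list are not reported here by name.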

Additional observations from a re-analysis of the deposited data

How the results depend on the processing

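The direction of the split depended on the scaling. Members higher with LPA numbered 55 on deposited FPM, 15 after median-of-ratios and 13 after upper-quartile rescaling, 17 by edgeR and 5 by DESeq2; members lower numbered 4, 24, 26, 25 and 8. Without 1 library the higher count ranged from 30 to 85 and the lower from 2 to 4, and on rescaled FPM, added after seeing the data, from 5 to 20 and from 11 to 22. KRAB members higher numbered 33, then 10, 8, 10 and 1 in the same order (17 to 47 without 1 library), and lower 3, then 19, 19, 19 and 5 (2 to 3). Partners higher numbered 12, then 5, 5, 5 and 4 (10 to 14), and lower 1, 2 with upper-quartile rescaling, and 0 to 1 without 1 library. The other zinc finger names had 10 higher, then 3, 2, 3 and 0 (4 to 14), and 4 lower, then 9, 10, 9 and 6 (3 to 6). The members' median stood -0.0080 from that of all genes, -0.032 with a 5 FPM filter, 0.0096 with no filter, 0.013 with a pseudocount of 4, and between -0.015 and 0.0044 without 1 library.

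Of single genes, log2 fold changes turned negative under median-of-ratios, upper-quartile, edgeR and DESeq2 scaling for ZNF207 (-0.0076, -0.017, -0.0046 and -0.0089), ZNF562 (-0.025, -0.034, -0.023 and -0.027), ZNF670 (-0.062, -0.070, -0.082 and -0.086) and ZNF644 (-0.019, -0.028, -0.016 and -0.020), and under upper-quartile scaling for ZNF24 (-0.0016). Without 1 library ZNF670 turned without PBS 1 (-0.076), and ZNF836 ranged from -0.094 to 0.036, positive without LPA 1 (0.034) or PBS 3. The cause of these changes was not tested. With the replicate block 49 members were higher and 3 lower, 31 and 2 of the KRAB members, and ZNF841 (-0.25), ZNF638 (0.17) and ZNF335 (0.25) lost their calls while ZNF92 (0.40) passed. With 3 libraries a group and as few as 44 reads, changes of low members were not detectable unless large.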
